A study of Mus musculus with 20 samples.

Results

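The 3 genes of the Nr4a family of nuclear receptors, Nr4a1 (also called Nur77), Nr4a2 (Nurr1) and Nr4a3 (Nor1), were described in cerebellar RNA-seq of 20 male mice. They were chosen by name from the 29200 genes of the count table, and the family was chosen with its decrease in the 12-month genotype comparison already known. For the 3 genes, the values of that comparison, and of every comparison that uses the same 12-month mice, are therefore given as a description without a test. The spread between mice and their correlation were also named in that choice, so both are given as a description. The mice were 5 WT/WT and 5 304Q/304Q animals at 2 months of age and 5 of each genotype at 12 months. 304Q/304Q mice carry, on both alleles, an expanded and CAA-interrupted polyglutamine repeat that zinc-finger nucleases placed in the murine Atxn3 gene, the gene of spinocerebellar ataxia type 3. The knock-in group comes from a single founder line, all mice were labelled C57BL6/N, and the labels describe the control alleles as wild-type ataxin-2, whereas the study describes Atxn3. The mice were killed by CO2 and decapitation, and the time of day is not given in the sources used here. Total Atxn3 counts cannot tell the knock-in allele from the wild-type one, and the log2 fold change of Atxn3 in 304Q/304Q mice was -0.54 at 2 months (adjusted p = 0.0916, edgeR) and -0.13 at 12 months (adjusted p = 0.51, edgeR).

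Nr4a receptors are orphan nuclear receptors: their ligand pocket is filled by bulky side chains, so their activity depends mainly on how much of them a cell makes. They are immediate early genes, transcribed within minutes of a stimulus through factors that are already in the cell, such as the cAMP-responsive factor CREB, and their messages decay quickly. As monomers they bind the NBRE sequence, and Nr4a1 and Nr4a2 can also pair with the retinoid receptor RXR. Nr4a2 is best known in the brain for the development and upkeep of midbrain dopamine neurons, Nr4a1 for its induction by nerve growth factor and neuronal activity, and Nr4a3 as their close relative with an overlapping set of inducers.

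The 3 genes lie on different chromosomes, each on the GRCm38 build with no other annotated gene overlapping it. Nr4a1 (ENSMUSG00000023034) spans chr15:101254269-101274795 on the plus strand, with 3509 bases of merged exons. Nr4a2 (ENSMUSG00000026826) spans chr2:57106830-57124003 on the minus strand, with 4059 bases of exons. Nr4a3 (ENSMUSG00000028341) spans chr4:48045153-48086447 on the plus strand, with 5987 bases of exons.

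The promoters of the 3 genes are shown, and a link of their sequence to the correlation between mice was not tested. The sequences are RefSeq's for GRCm38.p6, in the direction of transcription, and stop where an annotated exon begins. Capitals mark TGACG, the core of the cAMP response element (CRE), which CREB binds, on either strand, so that CGTCA is the same site read on the other strand. The stretches shown are chr15:101266596-101266845 (plus strand, inside an intron of the longest annotated Nr4a1 transcript), chr2:57124004-57124253 (minus strand, upstream of Nr4a2) and chr4:48045055-48045152 (plus strand, upstream of Nr4a3).
Nr4a1: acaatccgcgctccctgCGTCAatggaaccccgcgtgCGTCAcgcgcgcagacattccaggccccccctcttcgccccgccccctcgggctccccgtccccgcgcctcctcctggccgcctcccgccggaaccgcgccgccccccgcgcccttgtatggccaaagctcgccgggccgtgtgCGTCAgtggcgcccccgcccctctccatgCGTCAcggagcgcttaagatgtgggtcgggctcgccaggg
Nr4a2: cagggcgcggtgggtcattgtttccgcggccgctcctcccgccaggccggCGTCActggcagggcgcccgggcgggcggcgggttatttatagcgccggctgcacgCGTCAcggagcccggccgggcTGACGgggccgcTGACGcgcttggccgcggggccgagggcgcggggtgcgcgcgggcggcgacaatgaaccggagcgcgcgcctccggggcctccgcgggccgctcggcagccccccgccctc
Nr4a3: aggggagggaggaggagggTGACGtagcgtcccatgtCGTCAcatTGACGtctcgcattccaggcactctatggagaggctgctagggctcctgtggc
In the window from 250 bases before to 50 bases after the RefSeq start, each of the 3 promoters held 4 CRE cores. Those of Nr4a1 began at positions -233, -213, -69 and -40 from the start, those of Nr4a2 at -200, -144, -123 and -111, and those of Nr4a3 at -231, -213, -205 and -147, the last of which lies in an annotated exon and is not shown. Among all 32851 promoters of this length, 20.8% held at least 1 core and 0.231% held at least 4. The full CRE, TGACGTCA, which contains the core on both strands, occurred in 1.79% of all promoters and in none of the 3 windows. The NBRE, AAAGGTCA, occurred in 1.51% of all promoters and in none of the 3 windows. The windows were also rich in G and C, at 72.3% for Nr4a1, 81.7% for Nr4a2 and 64.7% for Nr4a3, against a median of 52.7% over all promoters. These are matches of letters, the shares over all promoters are not matched for G and C content, and no binding was measured.

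Values are normalized counts, which are the deposited counts scaled to a common library size, in the order of replicates 1 to 5. For Nr4a1, the WT/WT mice had 1136, 1289, 1574, 223 and 855 normalized counts at 2 months and 1002, 2019, 1411, 1397 and 1880 at 12 months. The 304Q/304Q mice had 1091, 504, 1082, 235 and 1138 at 2 months and 971, 205, 355, 244 and 1521 at 12 months. The 2-month groups covered nearly the same range, each with replicate 4 far below the rest, whereas at 12 months 4 of the 5 304Q/304Q mice lay below every WT/WT mouse, replicate 1 by little, and replicate 5 lay within the WT/WT range. The means ± SD of the WT/WT and 304Q/304Q groups (n = 5 each) were 1016 ± 514 and 810 ± 414 at 2 months, and 1542 ± 409 and 659 ± 572 at 12 months.

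For Nr4a2, the WT/WT mice had 1350, 1214, 1354, 139 and 421 normalized counts at 2 months and 1097, 919, 1320, 726 and 1633 at 12 months. The 304Q/304Q mice had 649, 406, 666, 117 and 595 at 2 months and 255, 125, 111, 94.8 and 722 at 12 months. The 2-month groups overlapped through WT/WT replicates 4 and 5, and the 12-month groups did not overlap, although the highest 304Q/304Q mouse and the lowest WT/WT mouse were nearly level. Means ± SD were 896 ± 573 and 486 ± 231 at 2 months, and 1139 ± 353 and 262 ± 265 at 12 months.

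For Nr4a3, the WT/WT mice had 1032, 899, 903, 72.3 and 215 normalized counts at 2 months and 912, 238, 1071, 289 and 1134 at 12 months. The 304Q/304Q mice had 295, 199, 309, 68.0 and 182 at 2 months and 84.4, 62.0, 60.0, 75.2 and 676 at 12 months. In the WT/WT groups the mice fell far apart, with 3 near or above 900 and 2 below 300 at each age, while the 304Q/304Q mice at 2 months stayed at or below 309 and at 12 months lay between 60.0 and 84.4 except for replicate 5. Means ± SD were 624 ± 445 and 210 ± 97.6 at 2 months, and 729 ± 433 and 191 ± 271 at 12 months.

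**Figure D1:**
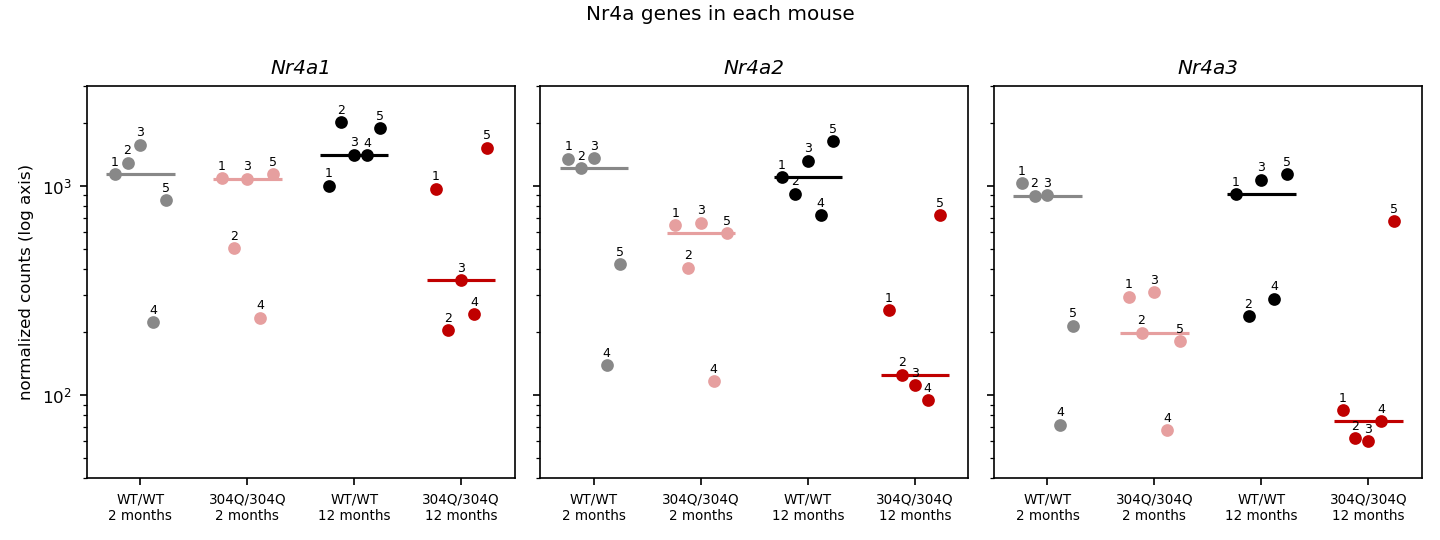
Normalized counts (log axis) of Nr4a1, Nr4a2 and Nr4a3 in each of the 20 mice by group, with the replicate number above each point and a line at the group's median. Replicate 4 is low in both 2-month groups for all 3 genes, and replicate 5 of the 12-month 304Q/304Q mice stands above the other 4 mice of its group.

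Compared per length of exon, Nr4a1 was the most abundant of the 3 in 19 of 20 mice and Nr4a3 the least abundant in all 20. The exception was WT/WT replicate 1 at 2 months, where Nr4a2 exceeded Nr4a1 by 0.04 in log2 RPKM (reads scaled to exon length and library size). Mean levels in WT/WT mice at 12 months were 30.9 RPKM for Nr4a1, 19.7 for Nr4a2 and 8.56 for Nr4a3, and in 304Q/304Q mice of that age 13.2, 4.54 and 2.25 RPKM. Each gene had its highest mean in 12-month WT/WT mice, then in 2-month WT/WT, 2-month 304Q/304Q and 12-month 304Q/304Q mice, and the ranges of every neighbouring pair in that order overlapped. Of the 30 nuclear receptor genes that passed the filter on low counts, Nr4a1 ranked 6th by mean RPKM over all mice (20.2), Nr4a2 11th (12.1) and Nr4a3 18th (5.16).

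The genotype effect at 2 months was tested, as the choice of the genes did not name it. The spread and correlation named in that choice include the 2-month mice, and earlier results of these data were known. The 2-month p-values are therefore not those of an independent test. The log2 fold change of 304Q/304Q against WT/WT mice was -0.32 for Nr4a1 (SE 0.472, 95% interval -1.29 to 0.66, adjusted p = 0.959, edgeR). It was -0.87 for Nr4a2 (SE 0.507, interval -1.91 to 0.18, adjusted p = 0.900, edgeR). For Nr4a3 it was -1.55 (SE 0.646, interval -2.88 to -0.21, adjusted p = 0.860, edgeR), the 4th largest difference in size among the 12153 genes tested. With surrogate variables in DESeq2 the 2-month log2 fold changes shrank to 0.02 for Nr4a1, -0.20 for Nr4a2 and -0.49 for Nr4a3. None of the 3 passed the threshold for a differentially expressed gene (DEG), adjusted p no higher than 0.05 and an absolute log2 fold change no lower than 0.5, which 0.00823% of tested genes passed at this age. The groups overlapped for all 3 genes, and 1.05% of tested genes had groups of 5 that did not. The intervals leave room for decreases larger than those fitted and, for Nr4a1 and Nr4a2, for no change or an increase. That of Nr4a3 lies below 0 but is not adjusted for the 12153 genes tested, 674 of which had an unadjusted p under 0.05 in edgeR. A difference at this age was thus not detectable with 5 mice a group rather than shown to be absent.

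At 12 months, the comparison on which the family was chosen, all 3 genes were lower in 304Q/304Q mice. The log2 fold change was -1.22 for Nr4a1 (SE 0.479), -2.10 for Nr4a2 (SE 0.535) and -1.90 for Nr4a3 (SE 0.659), that is to 0.430, 0.233 and 0.268 of the WT/WT level. At this age 3.09% of tested genes were DEGs and 8.94% had groups that did not overlap, as was the case for Nr4a2. The size of the decrease depended on 304Q/304Q replicate 5, and without it the log2 fold change was -1.79 for Nr4a1, -2.95 for Nr4a2 and -3.36 for Nr4a3. That library also stood apart in skeletal muscle genes: their 6 markers summed to 229 CPM (counts scaled to library size) in it and to between 2.04 and 12.7 CPM in the other 19 libraries, and their part in the result was not tested.

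With age, from 2 to 12 months, the fitted changes in WT/WT mice were 0.60 for Nr4a1, 0.35 for Nr4a2 and 0.23 for Nr4a3 on the log2 scale, with SEs of 0.469, 0.495 and 0.611. In 304Q/304Q mice they were -0.30 (SE 0.479), -0.89 (SE 0.535) and -0.13 (SE 0.678). The differences between the genotype effects at the 2 ages were -0.90 (SE 0.670), -1.23 (SE 0.729) and -0.35 (SE 0.913). The 12-month mice enter all of these values, which are given as a description.

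**Figure D2:**
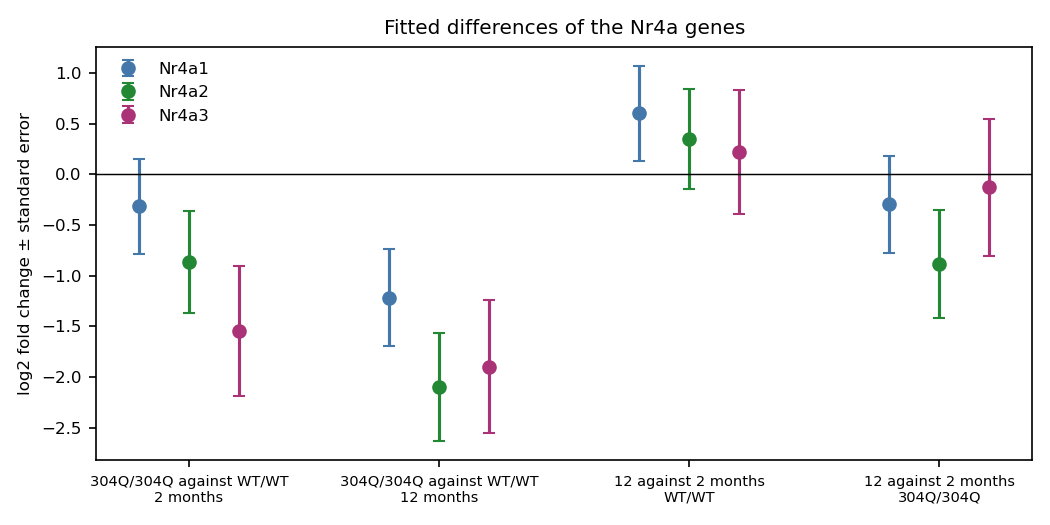
Fitted log2 fold change ± standard error of each Nr4a gene for genotype at 2 and 12 months and for age in each genotype (5 mice a group). All 3 genes lie below 0 in both genotype comparisons, and with age they lie above 0 in WT/WT and below 0 in 304Q/304Q mice, with error bars that reach 0 for all but Nr4a1 in WT/WT and Nr4a2 in 304Q/304Q mice.

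The spread between mice of the same group, named in the choice of the family, was also large for these genes. Over all 4 groups the within-group SD was 1.0 for Nr4a1, 1.10 for Nr4a2 and 1.31 for Nr4a3 in log2 CPM, against a median of 0.154 over all tested genes, which placed them 24th, 20th and 9th of 12153. The biological coefficient of variation was 0.521, 0.569 and 0.699, with 0.113 for the common value. They were the 3 most variable of the 30 nuclear receptor genes, and the next, Nr2f6, had an SD of 0.347. The highest mouse exceeded the lowest of its group by 14.3-fold for Nr4a3 in 2-month WT/WT mice, and by 2.01-fold for Nr4a1 in 12-month WT/WT mice, the tightest group of the 3 genes. Counting error was small beside this spread, since the lowest count of any member in any library was 48, for which Poisson error is 14.4%.

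**Figure D3:**
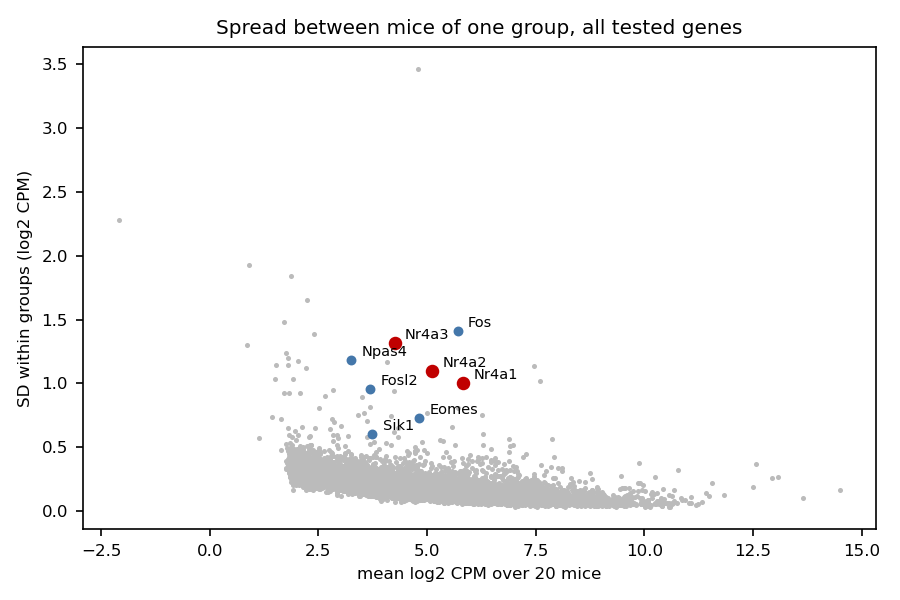
Within-group SD of log2 CPM against mean log2 CPM over 20 mice for each of the 12153 tested genes (grey), with the Nr4a genes in red and 5 other genes in blue. The Nr4a genes sit at SDs of 1.0 to 1.31, against a median of 0.154 over all genes.

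Mice high in one Nr4a gene were high in the others, a correlation that was also named in the choice of the family. After subtracting group means, log2 CPM of Nr4a1 and Nr4a2 had a Pearson r of 0.907 (Spearman rho 0.827) over the 20 mice, Nr4a2 and Nr4a3 had an r of 0.923 (rho 0.910), and Nr4a1 and Nr4a3 an r of 0.725 (rho 0.605). Without the 2 farthest mice, replicate 4 of both 2-month groups, r was 0.833, 0.896 and 0.570. Each pair shares the libraries and their depth, and the correlation of the mean of the 3 genes with library size was 0.190. In the looser pair, Nr4a1 and Nr4a3, the genes parted in mice such as WT/WT replicate 2 at 12 months. It had the highest Nr4a1 value of all mice (2019) with Nr4a3 at 238. Another was 304Q/304Q replicate 1 at 12 months, with Nr4a1 at 971 and Nr4a3 at 84.4. Without WT/WT replicate 2 at 12 months r was 0.796 for this pair, still below 0.923 for Nr4a1 and Nr4a2 and 0.945 for Nr4a2 and Nr4a3. The difference of Nr4a3 minus Nr4a1 in log2 RPKM ranged from -4.26 to -0.91 over single mice.

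**Figure D4:**
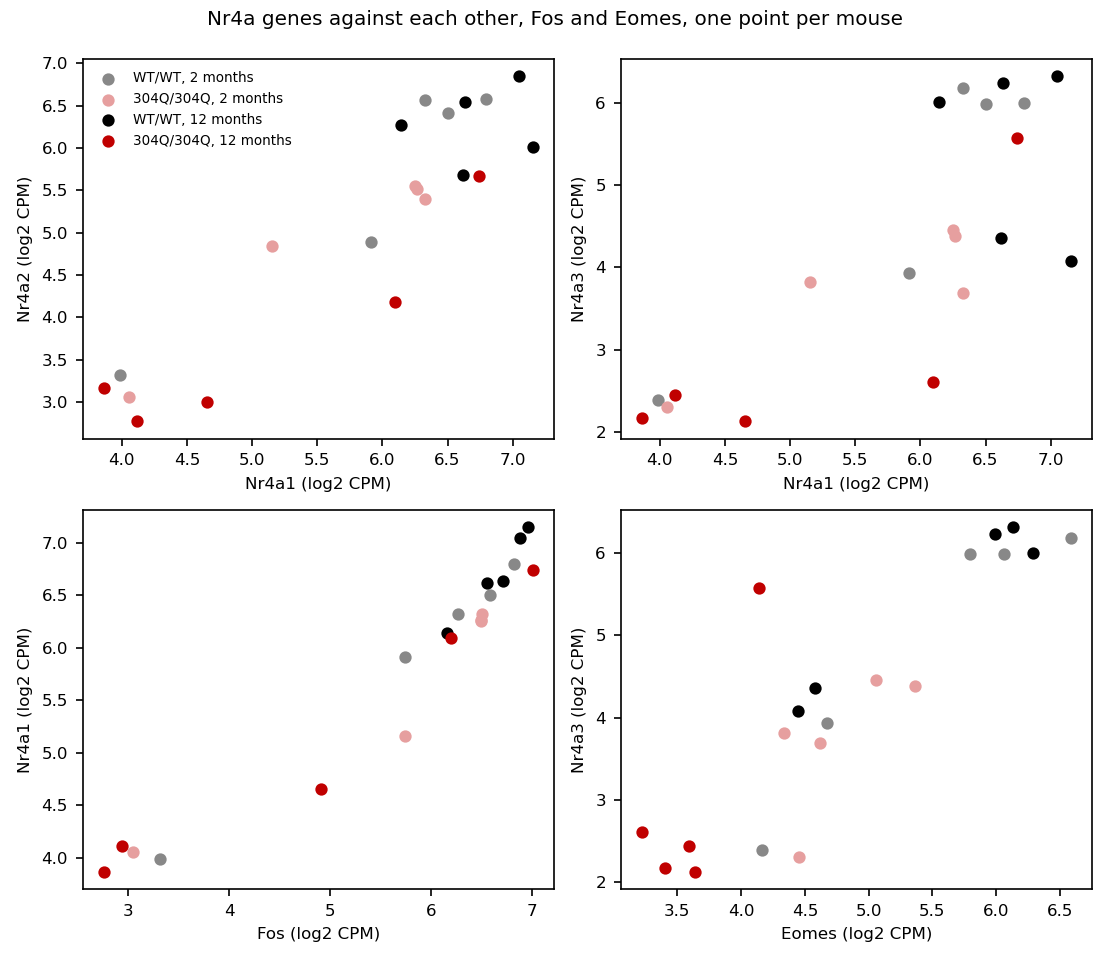
Log2 CPM of Nr4a2 and Nr4a3 against Nr4a1, of Nr4a1 against Fos and of Nr4a3 against Eomes, one point per mouse, coloured by group. Nr4a1 follows Fos over the whole range, and 5 mice lie at the low end of Nr4a1, 3 of them 12-month 304Q/304Q mice and 2 the replicate 4 mice at 2 months.

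The genes whose pattern was most like the mean of the 3 receptors, by r of group-centred log2 CPM over the 20 mice, were Fosl2 (0.943), Klf2 (0.926), Tob2 (0.925), Sik1 (0.918), Fos (0.902), Npas4 (0.901), Midn (0.898), Dusp5 (0.895), Fosb (0.893) and Apold1 (0.891). Fos, Fosb and Fosl2 encode AP-1 subunits, Npas4 a neuronal activity-dependent transcription factor, Klf2 a Krüppel-like factor, Sik1 a salt-inducible kinase, Dusp5 a phosphatase of ERK, Tob2 an antiproliferative protein of the Tob/BTG family and Apold1 an endothelial early-response protein. At the other end were Ccdc166 (-0.860), Ufd1 (-0.854) and Cdkn2d (-0.832). The members had different nearest genes: Nr4a1 was closest to Fos (r 0.969), Nr4a2 to Fosl2 (0.942), and Nr4a3 to the clock gene Per1 (0.950). Fosl2 came 2nd for Nr4a3 (0.935), so the nearest genes hardly separate Nr4a2 from Nr4a3.

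Fos, named by the rule for likeness, and Eomes, chosen after its values were seen, differed in their likeness to Nr4a1 and to Nr4a3. Fos had an r of 0.969 with Nr4a1, 0.887 with Nr4a2 and 0.713 with Nr4a3, while Eomes, a T-box factor of unipolar brush cells, had 0.416, 0.687 and 0.849. In 12-month 304Q/304Q mice, replicates 1 to 5, Fos was at 6.19, 2.76, 4.91, 2.94 and 7.0 log2 CPM and Eomes at 3.22, 3.40, 3.64, 3.59 and 4.14. Fos was thus high in replicates 1 and 5, as Nr4a1 was, while Eomes was low throughout. Egr1 and Arc, also activity-induced, had an r of 0.631 and -0.418 with Nr4a1 and 0.020 and -0.649 with Nr4a3, and were named after their values were seen.

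Genes around the receptors were described from lists chosen by function. Their tests at 12 months use the mice on which the family was chosen, so they are not independent of that choice. Of all tested genes, 0.00823% were DEGs for genotype at 2 months and 3.09% at 12 months. Beside shares this low, 0 calls in a short list do not show that its genes were unchanged. Of the RXR partners, 2 of 3 passed the filter, Rxra and Rxrb, with 0 DEGs for genotype at either age and log2 fold changes of -0.12 and 0.00 at 2 months and -0.11 and -0.04 at 12 months. Of 22 upstream kinases and factors (CREB, its coactivators, calcium and cAMP kinases, Mef2 and Srf), 0 were DEGs, and the smallest p-values at 12 months were those of the calcium-signal kinases Camkk2 at -0.33 (adjusted p = 0.000248, edgeR) and Camk2a at -0.34 (adjusted p = 0.000283, edgeR), both under the size limit. Of 13 corepressors and coactivators 0 were DEGs, and the coactivator gene Ncoa2 was at 0.26 (adjusted p = 0.0225, edgeR).

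Among 14 tested CREB-responsive genes 3 fell at 12 months, beside 3.09% of all genes called. The r of these 3 with the receptors across mice was 0.918 for Sik1, 0.882 for Per1 and 0.860 for Dusp1. Their fall is therefore not independent of that of the receptors. Sik1 fell by 1.06 on the log2 scale (adjusted p = 0.0240, edgeR), the WT/WT mean being 312 ± 79.2 normalized counts and the 304Q/304Q mean 148 ± 77.7. Per1 fell by 1.08 (adjusted p = 0.00177, edgeR), from 3235 ± 797 to 1531 ± 381, with the groups apart. The MAP kinase phosphatase gene Dusp1 fell by 1.15 (adjusted p = 0.0360, edgeR). Sik1 (adjusted p = 0.70) and Dusp1 (adjusted p = 0.510) lost their call with surrogate variables in the edgeR model, and Dusp1 also in DESeq2 (adjusted p = 0.0503). The list's median log2 fold change was -0.16, with 12 of 14 below 0, against a median of 0.00 over all genes.

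Of 22 other immediate early genes 4 fell at 12 months and 0 rose by the DEG thresholds, beside 3.09% of all tested genes called, 222 lower and 153 higher. Of those that fell, Klf2 and Dusp5 were among the genes most like the receptors across mice, so their fall is not independent of that of the receptors. Dusp5 fell by 1.61 (adjusted p = 5.25e-07, edgeR), from 2221 ± 201 to 725 ± 203 normalized counts, with no overlap between groups. Klf2 fell by 1.22 (adjusted p = 0.0188, edgeR), Klf4, another Krüppel-like factor, by 1.15 (adjusted p = 0.0163, edgeR) and the pseudokinase gene Trib1 by 0.83 (adjusted p = 0.00814, edgeR). Ier5 at 0.48 (adjusted p = 0.0227, edgeR) and Arc at 0.34 (adjusted p = 0.0198, edgeR) were higher and passed the limit on p but not that on size. The list's median was -0.47, with 18 of 22 below 0. With surrogate variables in the edgeR model Klf2 (adjusted p = 0.444), Klf4 (adjusted p = 0.164) and Trib1 (adjusted p = 0.0493, under the size limit) were no longer called. Fos at -1.05 (adjusted p = 0.271, edgeR), Fosl2 at -1.38 (adjusted p = 0.0677, edgeR) and Npas4 at -0.64 (adjusted p = 0.469, edgeR) did not pass. Of this list, 11 of 22 members had an r over 0.5 with the receptors, against 6.72% of all tested genes and 6 of 14 CREB-responsive genes.

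Of 5 tested dopamine neuron genes that Nr4a2 is known to drive in the midbrain, 1 was a DEG at 12 months, where 3.09% of all tested genes were. Th, the rate-limiting enzyme of dopamine synthesis, fell by 0.76 (adjusted p = 0.000579, edgeR), from 266 ± 38.3 to 157 ± 27.1 normalized counts, without overlap. Its r with the receptors across mice was -0.07. Among 27 other nuclear receptors 1 was a DEG at 12 months, a share close to the 3.09% of all tested genes. This was Nr1d1, a clock repressor whose gene overlaps Thra, which fell by 0.60 (adjusted p = 7.90e-08, edgeR), from 4435 ± 368 to 2926 ± 90.3 normalized counts.

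At 2 months 0 genes of any of the 7 lists were DEGs, beside 0.00823% of all tested genes. The genotype effect differed between ages in 3 listed genes that passed the same thresholds, Th, Dusp5 and Nr1d1, beside 0.938% of tested genes. With age in WT/WT mice, where 2.58% of genes were DEGs, Camk4 fell and Th, Junb, Nr1h3 and Nr2f6 rose, the 5 listed genes called. In 304Q/304Q mice, where 2.28% were DEGs, Dusp5 fell and Ier5, Nr1h3, Nr3c2 and Nr6a1 were among the genes that rose. Dusp1, Dusp5, Nr1d1, Tob2, Ufd1, Camk4, Junb, Nr1h3, Nr2f6, Nr3c2 and Nr6a1 overlap other annotated genes, so some of their reads could belong to those.

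**Figure D5:**
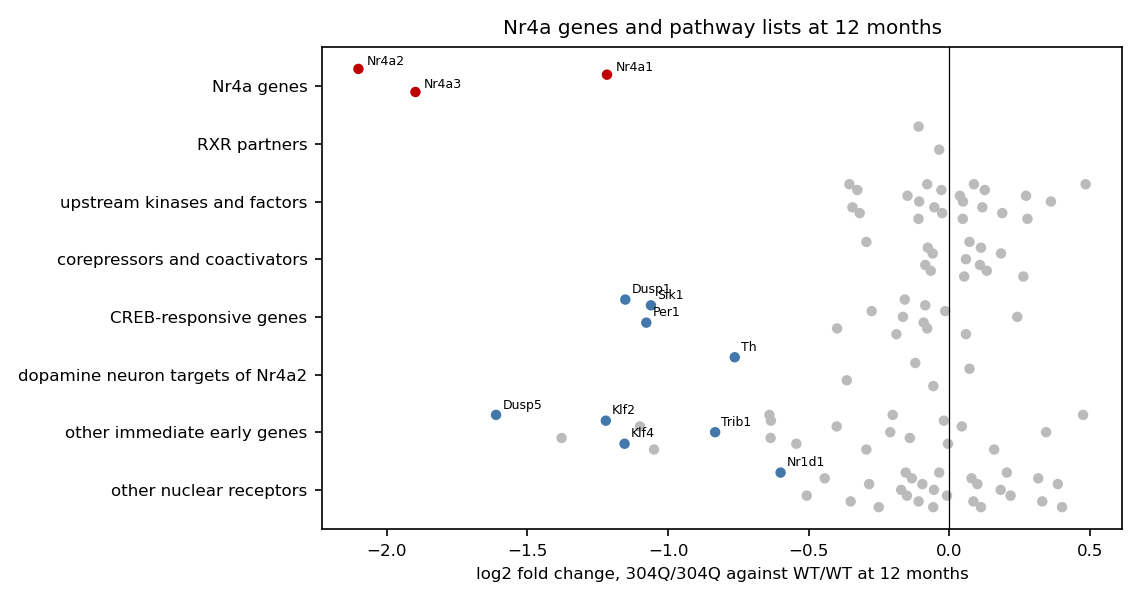
Log2 fold change of 304Q/304Q against WT/WT mice at 12 months for the Nr4a genes (red) and for each tested gene of 7 lists, with DEGs named and in blue and other genes in grey. The 9 listed DEGs all lie below 0, and all 3 Nr4a genes lie further below 0 than most listed genes.

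Other values that differed between genotypes at 12 months or varied between libraries are given here, and their part in these results was not tested. The summed clock-output genes, a list that includes Per1 and Nr1d1, had an r of 0.650 with the receptors, and lay between 672 and 745 CPM in 12-month 304Q/304Q mice against 845 to 1098 CPM in WT/WT mice. The 5 inhibitory interneuron markers summed to 933 to 977 CPM in 12-month 304Q/304Q and 1113 to 1347 CPM in WT/WT mice, and the 6 Purkinje cell markers to 4461 to 4921 against 5434 to 6163 CPM. Oligodendrocyte markers were likewise lower, at 3301 to 4578 against 5041 to 5747 CPM, as were Bergmann glia and astrocyte markers, at 2232 to 2368 against 2390 to 2525 CPM, and blood markers, at 96.2 to 112 against 116 to 246 CPM. The sum of the 4 unipolar brush cell markers was higher, at 646 to 708 against 475 to 570 CPM. Eomes, 1 of the 4, fell by 2.06 on the log2 scale (adjusted p = 0.001, edgeR), from 729 ± 378 to 174 ± 44.8 normalized counts. The higher sum therefore came from at least 1 of the other markers, Lmx1a, Calb2 and Otx2, which are not given separately. After subtracting group means, the r with the receptors was -0.387 for inhibitory interneuron, 0.277 for Purkinje cell and -0.174 for oligodendrocyte markers. It was 0.217 for Bergmann glia and astrocyte, 0.113 for blood and 0.245 for unipolar brush cell markers. In bulk tissue, fewer cells of a type and less RNA per cell cannot be told apart. Choroid plexus markers ranged from 12.5 to 2105 CPM over the libraries and had an r of 0.037 with the receptors. The 6 forebrain markers summed to between 138 and 193 CPM over all libraries and the midbrain markers to between 54.2 and 75.7 CPM, while Emx1, Pou4f1 and Pou4f2 of these lists stayed under 0.5 CPM on average. Of 3 surrogate variables estimated from the counts, 1 had an r of 0.949 in size with the mean of the receptors, and with all 3 in the edgeR model the 12-month log2 fold change was -0.11 for Nr4a1, -1.02 for Nr4a2 and -1.01 for Nr4a3.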

How the data were processed

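Total cerebellar RNA of 20 male mice was sequenced from poly(A)-selected stranded libraries. The authors aligned the reads with STAR (version 2.4.5b in the submitters' processing notes, another version in the study's methods) to GRCm38 and used Rsubread to obtain gene counts, which the authors deposited as raw whole numbers. The strand setting of the counting is not given in the sources used here. Library totals were 11385380 to 27636687 counts, and every table column was matched to 1 mouse by name.

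Library sizes were scaled by TMM in edgeR 4.0.16 (R 4.3.3). The 12153 of 29200 genes whose mean count reached 50 were kept, all 3 Nr4a genes among them. A model with 1 term per group over all 20 libraries was fitted by edgeR quasi-likelihood, and p-values were adjusted over all tested genes by Benjamini-Hochberg. The DEG limits were 0.05 for the adjusted p and 0.5 for the absolute log2 fold change. SEs are the fold change over the root of the F statistic. Log2 CPM used a prior count of 2, and RPKM used merged exon lengths of GENCODE M21, which also gave symbols for 29150 IDs. Likeness was the Pearson r of group-centred log2 CPM with the mean of the 3 genes. The genes named are the 3 receptors, listed genes called for genotype (for lists with none, the 2 of smallest p), and the 10 most and 3 least alike, and others are marked where they appear. Some genes the rule names are not reported here. Groups come from the sample labels, and the study calls the WT/WT mice age-matched littermates, without saying which mice shared a litter. Alternatives used DESeq2 1.42.0, sva 3.50.0, other filters, and each library left out. Code was tested on simulated data. The members, lists and rules were chosen with earlier results of these data known.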

Additional observations from a re-analysis of the deposited data

Results flagged for a closer look

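Within groups of 5 mice, 2 values of log2 CPM stood apart from the rest by Dixon's ratio of gap to range, whose critical value is 0.71. Nr4a2 in 304Q/304Q replicate 4 at 2 months was low, with a ratio of 0.714, and Nr4a3 in 304Q/304Q replicate 5 at 12 months was high, with a ratio of 0.861. The first ratio is close to the critical value, and ratios on the normalized counts would differ. Chance alone flags about 1 in 20 groups, and 12 were examined. These groups hold the same mice for each of the correlated genes, so they were not independent of each other. The second mouse is also the library with skeletal muscle markers at 229 CPM.

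The genotype effect at 12 months differed from that at 2 months, by the interaction term in edgeR, in 4 genes of the lists. The difference on the log2 scale was -0.893 for Th, -1.234 for Dusp5, -0.5 for Nr1d1 and -0.329 for Camk2a, the last under the size limit for a DEG.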

How the results depend on the processing

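At 2 months 1 gene was called over all genes by edgeR, 8 by DESeq2, 10 by DESeq2 with surrogate variables, 9 by edgeR with surrogate variables, 3 with no filter on low counts, and 1 to 2 with each library left out. The log2 fold change of Nr4a1 at 2 months turned to 0.017 in DESeq2 with surrogate variables. At 12 months Nr4a1 moved to -0.119 in that fit and to -0.109 in edgeR with surrogate variables, and its 12-against-2-month change in 304Q/304Q mice turned to 0.019 in the latter. The cause was not tested, and 1 of these variables had an r of 0.949 in size with the mean of the receptors. Nr4a3 at 12 months ranged from -3.362 (without 304Q/304Q replicate 5) to -1.675 with each library left out. Its change with age in WT/WT mice ranged from -0.064 (without WT/WT replicate 4 at 2 months) to 0.488, and in 304Q/304Q mice from -1.59 (without replicate 5 at 12 months) to 0.097, turning positive in 6 of the fits (0.034, 0.044, 0.066, 0.077, 0.09 and 0.097). The other log2 fold changes of the 3 genes kept their direction in every alternative run, but with surrogate variables in DESeq2 those at 2 months shrank to -0.198 for Nr4a2 and -0.488 for Nr4a3. No 2-month test of the 3 genes passed in any alternative.

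Of the listed genes called at 12 months, Per1, Th, Dusp5 and Nr1d1 were called in all 29 alternatives. With surrogate variables in edgeR Sik1, Dusp1, Klf2, Klf4 and Trib1 lost their call and Egr1 gained one, so that 1 CREB-responsive and 2 immediate early genes were called. Without 304Q/304Q replicate 5 at 12 months 9 immediate early genes were called, and without WT/WT replicate 3 at 12 months 2 were. The CREB-responsive count was 1 without WT/WT replicate 3 or 5 or 304Q/304Q replicate 2, 3 or 4 at 12 months. Of the upstream kinases and factors 1 was called without WT/WT replicate 2 or 4 or 304Q/304Q replicate 5 at 12 months, and 2 other nuclear receptors were called without WT/WT replicate 1 or 5 or 304Q/304Q replicate 1. With the replicate block, a term for the replicate number, the 12-month log2 fold change was -1.53 for Nr4a1, -2.31 for Nr4a2 and -2.01 for Nr4a3. Replicate numbers do not pair the mice: 6 of 30 same-numbered pairs had a correlation of deviations over 0.1 (median -0.040). A minimum of 50 counts in every library leaves out Nr4a3, whose lowest count was 48, and gave no value for it.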
